A study of Mus musculus with 9 samples.

Results

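Genes of resident macrophages and dead-cell uptake were followed in mouse bone marrow, namely *Axl*, *Mertk*, *Timd4*, *Mrc1*, *Cd163*, *Cd5l*, *Spic*, *Vcam1* and *Adgre1*. They were found by symbol, 9 of the 31053 genes counted, and all 9 are listed once. Single cell RNA sequencing (10x Genomics 3′ chemistry) was conducted on femur bone marrow of 9 female mice aged 9 to 10 weeks. There were 3 inbred NZB mice, 3 inbred NZW mice and 3 NZBWF1 mice, the F1 generation of an NZW mother and an NZB father and a model of lupus. All mice came from the same supplier and no treatment is named. The marrow was cleared of red cells by lysis and passed through a filter, so the cells measured are those that came into suspension. Each mouse gave 1 library, so p-values across mice measure the spread between animals, at most 3 per strain. In the edgeR fits the strains share 1 estimate of that spread. A comparison of strains thus also depends on the mice of a strain left out of it.

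A marrow macrophage engulfs expelled erythroblast nuclei, aged neutrophils and dying precursors, a process called efferocytosis. Receptors on its surface bind phosphatidylserine on the dead cell, either directly or through bridging ligands such as Gas6 and protein S, and the cargo is then digested and its iron and sterols exported. Macrophages that sit at the center of erythroblastic islands are known for the F4/80 antigen, CD163 and the adhesion molecule VCAM1, and those that handle heme iron depend on the transcription factor Spi-C.

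The 9 genes are protein coding in the GENCODE annotation of GRCm38 (mm10), the build of the files. The receptor tyrosine kinases are *Axl* (ENSMUSG00000002602, chr7:25757273-25788705, minus strand) and *Mertk* (ENSMUSG00000014361, chr2:128698956-128802894, plus strand). *Timd4* (ENSMUSG00000055546, chr11:46810800-46844332, plus strand) encodes TIM-4, a receptor that binds phosphatidylserine directly. *Mrc1* (ENSMUSG00000026712, chr2:14229392-14332057, plus strand) encodes the mannose receptor and *Cd163* (ENSMUSG00000008845, chr6:124304656-124330527, plus strand) the scavenger receptor for hemoglobin bound to haptoglobin. *Cd5l* (ENSMUSG00000015854, chr3:87357881-87371073, plus strand) encodes a secreted scavenger-type protein of tissue macrophages. *Spic* (ENSMUSG00000004359, chr10:88674772-88685015, minus strand) encodes Spi-C. *Vcam1* (ENSMUSG00000027962, chr3:116109949-116129688, minus strand) encodes the ligand of integrin α4β1. *Adgre1* (ENSMUSG00000004730, chr17:57358691-57483527, plus strand) encodes F4/80.

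Promoter sequence from RefSeq (GRCm38.p6) was matched to 7 of the 9 genes, all but *Vcam1* and *Adgre1*. The 250 bases before the RefSeq start are given below for *Mertk*, *Cd5l*, *Spic* and *Timd4*, the matched genes that differed most between macrophage-like and monocyte-like cells. They are written 5′ to 3′ in lower case with every match to 1 of 2 motifs in capitals, the PU-box core GAGGAA (read TTCCTC on the other strand), which ETS factors of the PU.1 and Spi-C family contact, and the Maf half-site TGCTGA (read TCAGCA on the other strand).
Mertk, chr2:128698665-128698914, plus strand: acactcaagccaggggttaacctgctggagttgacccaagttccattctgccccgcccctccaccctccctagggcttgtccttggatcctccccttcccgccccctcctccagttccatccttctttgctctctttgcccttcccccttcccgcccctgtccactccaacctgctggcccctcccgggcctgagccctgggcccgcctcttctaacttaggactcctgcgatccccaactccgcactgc
Cd5l, chr3:87357631-87357880, plus strand: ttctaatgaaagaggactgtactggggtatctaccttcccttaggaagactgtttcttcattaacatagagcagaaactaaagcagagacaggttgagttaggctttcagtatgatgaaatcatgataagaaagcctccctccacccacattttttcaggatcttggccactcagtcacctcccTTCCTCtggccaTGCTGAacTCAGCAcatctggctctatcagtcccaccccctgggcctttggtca
Spic, chr10:88683024-88683273, minus strand: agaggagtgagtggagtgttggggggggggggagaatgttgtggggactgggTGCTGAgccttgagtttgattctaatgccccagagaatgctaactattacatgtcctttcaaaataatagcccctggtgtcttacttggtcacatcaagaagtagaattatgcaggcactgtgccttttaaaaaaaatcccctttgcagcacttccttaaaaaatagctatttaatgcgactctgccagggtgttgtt
Timd4, chr11:46810549-46810798, plus strand: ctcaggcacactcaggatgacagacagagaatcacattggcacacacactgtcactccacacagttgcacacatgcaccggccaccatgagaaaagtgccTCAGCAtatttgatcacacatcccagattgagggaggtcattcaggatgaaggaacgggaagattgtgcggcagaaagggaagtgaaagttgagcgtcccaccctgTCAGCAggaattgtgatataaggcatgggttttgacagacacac
The half-site was present in *Cd5l* (2 matches), *Spic* (1) and *Timd4* (2), which is 3 of the 7 promoters, against 16.1% of 32851 promoters of the same length. The PU-box core was present in *Cd5l* (1), *Axl* (1) and *Mrc1* (3), also 3 of 7, against 23.3% of all promoters. *Mertk* held neither set of letters in this window. The *Spic* window lies within the GENCODE gene (chr10:88674772-88685015), since the RefSeq and GENCODE starts of *Spic* differ. These matches describe letters and no binding was measured.

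Of 68444 barcodes, 39051 passed the limits of the study, a minimum of 1000 UMIs and 500 genes and a maximum of 10% of UMIs from mitochondrial genes, where a UMI stands for 1 captured RNA molecule. The kept cells held 8106539 to 18663189 UMIs per mouse, with a median of 2182.5 to 2536.5 UMIs per cell. Among kept cells, 342 carried a barcode sequence that also occurred in another library. RNA outside cells, read from droplets with 10 to 99 UMIs, would add between 0.485% and 0.776% to a cell of median depth. Cells were put into classes by 17 lists of marker genes, none of which holds any of the 9 genes. Names end in "-like" because they rest on those markers alone.

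The macrophage gate asked for at least 5 UMIs from at least 3 of *C1qa*, *C1qb*, *C1qc*, *Slc40a1*, *Siglec1*, *Vsig4*, *Sdc3*, *Marco* and *Maf*. It was passed by 406 cells. Of these, 95 were called macrophage-like (0.243% of kept cells), 148 were called neutrophil-like because that list led, and 93 were mixed cells in which no list led clearly. The 95 cells held a median of 33 UMIs of the gate genes, and 4 of them held 5 to 7. Macrophage genes outside the gate were high in them. Levels, given as CPM (the UMIs of a gene scaled to 1000000 UMIs of the pooled class), were 4356 for *Hmox1*, the heme oxygenase, against 93.4 in the 5005 classical-monocyte-like cells. The apolipoprotein gene *Apoe* was at 3419 CPM against 39.1, the macrophage growth factor receptor gene *Csf1r* at 543 against 214, and the myeloid integrin gene *Itgam* at 81.7 against 144. Genes of the neutrophil list took a median of 0.0459% of the UMIs of a macrophage-like cell, against 15.2% in neutrophil-like cells, and 14 of the 95 also passed the neutrophil gate.

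Macrophage-like cells were few in every mouse. The 3 NZB mice gave 6, 4 and 2, the NZW mice 12, 19 and 8, and the NZBWF1 mice 4, 18 and 22. As a share of kept cells this was 0.128% ± 0.101 (SD, n = 3) in NZB, 0.270% ± 0.104 in NZW and 0.289% ± 0.120 in NZBWF1, and the ranges overlapped between strains (exact permutation test over all divisions of the 9 mice, p = 0.236). With at most 5% mitochondrial UMIs, which left 1 to 10 such cells per mouse, the shares were 0.0770% ± 0.0464 in NZB, 0.146% ± 0.0408 in NZW and 0.262% ± 0.0407 in NZBWF1 (n = 3 each), and the exact permutation p was 0.00714. In edgeR's quasi-likelihood test on cell numbers, NZB and NZW differed by a log2 of -1.21 (SE 0.573, adjusted p = 0.154), and -1.89 (adjusted p = 0.0351) once NZB replicate 1 was left out. NZBWF1 against NZB gave 1.38 (SE 0.569, adjusted p = 0.173 by edgeR), and between 1.07 without NZB replicate 3 and 2.06 without NZB replicate 1 (adjusted p = 0.0502). Of the 9 mice, 4 had at least 10 macrophage-like cells, NZW replicates 1 and 2 and NZBWF1 replicates 2 and 3, and tests within this class rest on them.

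The quality limits discarded more barcodes taken as macrophage-like than they kept, but fewer that passed the macrophage gate. Discarded barcodes were classed among themselves, and few UMIs make the minima of other gates harder to reach, the part of which was not tested. Of 29393 discarded barcodes, 160 passed the macrophage gate, against 406 kept cells. Of these 160, 118 were taken as macrophage-like, against 95 kept cells, and the 118 had a median of 619.5 UMIs. The UMI minimum alone or with other limits removed 103 of them and the gene minimum 92. The mitochondrial limit applied to 66 of the 118 (55.9%), against 8.26% of all discarded barcodes. The discarded barcodes held the same 9 transcripts, among them *Vcam1* at 5217 CPM, *Axl* at 2233 CPM and *Cd5l* at 854 CPM, and 90 of the 118 had at least 3 of the 9 genes. With kept and discarded barcodes together, the NZB mice gave 28, 9 and 11, the NZW mice 24, 27 and 18, and the NZBWF1 mice 17, 33 and 46 (shares of all barcodes 0.286% ± 0.250, 0.280% ± 0.0667 and 0.387% ± 0.0526, n = 3 each, exact permutation p = 0.611).

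**Figure D1:**
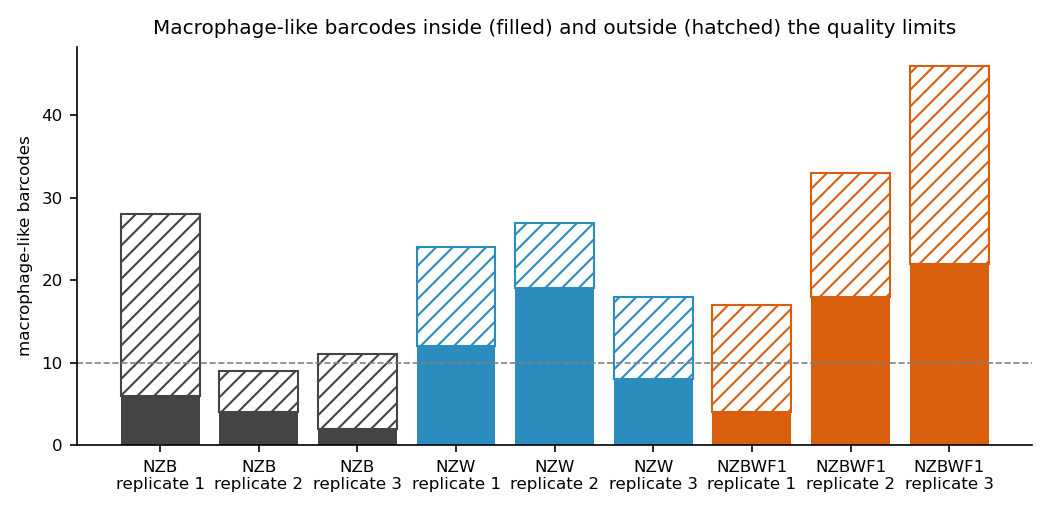
Macrophage-like barcodes per mouse (y axis, number of barcodes), stacked as kept (filled) and discarded by the quality limits (hatched), for the 3 mice of each strain; the dashed line marks the 10 cells needed for a test. Kept cells number 2 to 22 per mouse, and 4 of the 9 mice reach the line.

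The 9 genes were higher in macrophage-like cells than in classical-monocyte-like cells, the blood-borne phagocytes of the same marrow. All 9 of 9 passed edgeR's quasi-likelihood test in that direction (4 mice, mouse as a block). *Mertk*, *Cd5l*, *Spic*, *Cd163* and *Timd4*, which were below the filter on low counts within monocyte-like cells, entered the fit through the macrophage-like sums in which they are high. So did *Axl*, *Mrc1* and *Vcam1*, whose monocyte-like sums did not all reach the level that the filter of this fit asked for. Passing is thus no support for any of the 9 but *Adgre1*, which would have met the filter on its monocyte-like sums. In this fit 21.2% of the 7254 genes tested were called, 6.98% higher and 14.2% lower (506 and 1033 genes, against 582 and 792 with RLE size factors and 494 and 389 with DESeq2). The median log2 difference of the 9 was 7.24, and that of all genes tested was -0.37. Each receptor is given first by its level in the 9 mice. A level in the macrophage-like cells of 1 mouse can rest on very few UMIs. All NZB mice together held 4 for *Timd4*, 11 for *Cd163*, 12 for *Adgre1*, 14 for *Mertk*, 16 for *Spic* and 19 for *Cd5l*.

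*Axl*, whose product binds phosphatidylserine through Gas6, stood at 1534, 2252 and 3427 CPM in the macrophage-like cells of NZB replicates 1 to 3, at 1828, 2110 and 3960 in NZW, and at 3062, 1816 and 1231 in NZBWF1. Classical-monocyte-like cells held 14.01 ± 7.67 CPM (SD, n = 9), so the classes did not overlap in any mouse, and the log2 difference was 6.24 (SE 0.253).

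*Mertk*, the kinase that marrow macrophages use to take up apoptotic cells, was at 877, 450 and 643 CPM in NZB, 252, 452 and 1181 in NZW, and 1056, 567 and 352 in NZBWF1 macrophage-like cells. Classical-monocyte-like cells held 1.4 ± 1.3 CPM (SD, n = 9), and the log2 difference was 7.53 (SE 0.455).

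*Timd4*, the direct phosphatidylserine receptor, had no UMI in the 6 macrophage-like cells of NZB replicate 1, and was at 150 and 643 CPM in the other NZB mice, at 315, 477 and 139 in NZW, and at 422, 113 and 123 in NZBWF1. The log2 difference from classical-monocyte-like cells was 7.87 (SE 0.513) over the 4 mice tested.

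*Mrc1*, the mannose receptor gene, was at 1753, 1651 and 1499 CPM in NZB, 1103, 1407 and 1598 in NZW, and 1584, 1248 and 791 in NZBWF1. Classical-monocyte-like cells held 12.1 ± 6.4 CPM (SD, n = 9), a log2 difference of 5.83 (SE 0.244). *Cd163*, the hemoglobin scavenger receptor gene, was at 767, 150 and 643 CPM in NZB, 567, 553 and 1390 in NZW, and 106, 794 and 334 in NZBWF1, with a log2 difference of 6.23 (SE 0.353).

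Of the identity genes, *Vcam1* differed most, at 3616, 6605 and 8353 CPM in NZB, 5137, 4070 and 6531 in NZW, and 7179, 5164 and 3095 in NZBWF1. In classical-monocyte-like cells it stood at 8.6 ± 6.7 CPM (SD, n = 9), and the log2 difference was 9.00 (SE 0.310).

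*Cd5l*, the secreted scavenger gene, was at 1096, 1201 and 214 CPM in NZB, 221, 603 and 139 in NZW, and 1267, 340 and 193 in NZBWF1, with a log2 difference of 8.05 (SE 0.496). *Spic*, the heme-responsive factor gene, was at 329, 600 and 1928 CPM in NZB, 1071, 528 and 1112 in NZW, and 1267, 284 and 598 in NZBWF1, with a log2 difference of 7.24 (SE 0.360). For both genes the ranges of the 3 strains overlapped.

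*Adgre1* differed least. It was at 877, 300 and 428 CPM in NZB, 347, 528 and 486 in NZW, and 422, 681 and 158 in NZBWF1 macrophage-like cells, against 70.2 ± 14.2 CPM (SD, n = 9) in classical-monocyte-like cells. This was a log2 difference of 2.02 (SE 0.267), with an adjusted p of 1.67e-12 by edgeR, the largest of the 9. With the quality limits not applied, 8 mice reached 10 macrophage-like barcodes, and the log2 differences from classical-monocyte-like cells were 2.58 for *Adgre1*, and between 6.66 and 9.21 for the others. Only 4 of the 9 genes passed the filter within classical-monocyte-like cells in that setting. The fit of both classes took in all but *Adgre1* through the macrophage-like sums, where they were high, so their passing is no support.

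**Figure D2:**
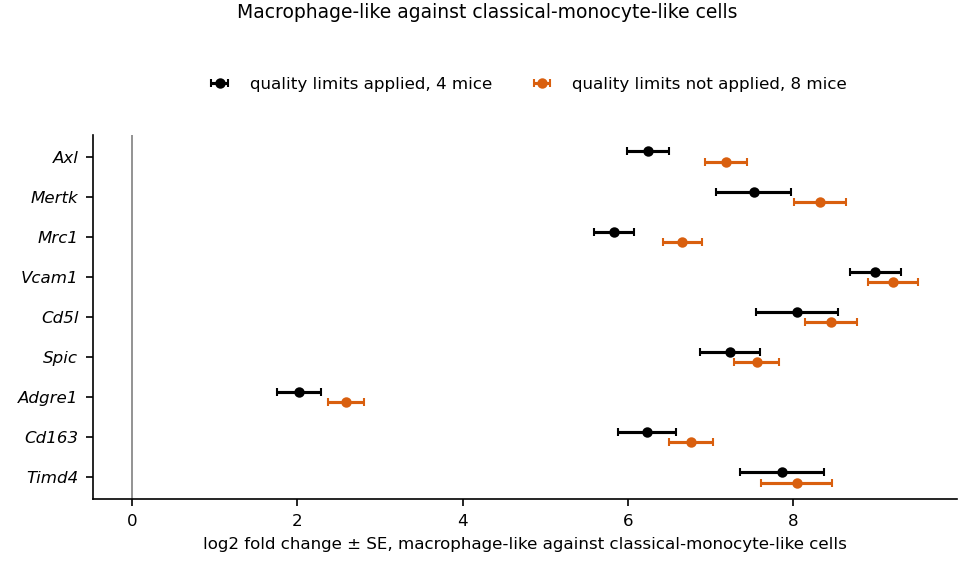
Log2 difference in level between macrophage-like and classical-monocyte-like cells for the 9 genes, from 4 mice with the quality limits (black) and 8 mice without them (orange). Bars of error are ± 1 SE, computed from the log2 difference and the F statistic of edgeR's test. Every point lies above 0, from 2.02 for *Adgre1* to 9.00 for *Vcam1* in the 4 mice.

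Levels were then set beside the other classes. With no minimum number of cells, the macrophage-like cells of every mouse were above each of 16 other classes for 7 of the genes, above 15 for *Adgre1*, and above 1 for *Timd4*, which had no UMI in NZB replicate 1. *Adgre1* was next highest in nonclassical-monocyte-like cells at 175 ± 69.7 CPM (SD, n = 8 mice), then in classical-monocyte-like cells, and the first exceeded the second in 7 of 8 mice (log2 difference 1.19, exact sign-flip permutation p = 0.0156, adjusted 0.276 over 99 pairs of neighbouring classes). Classical-monocyte-like cells exceeded granulocyte-monocyte-precursor-like cells in *Adgre1* in 9 of 9 mice (log2 difference 3.67, exact sign-flip p = 0.00391, the smallest that 9 mice can give, adjusted 0.129).

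Among the other classes with at least 10 cells in at least 5 mice, *Vcam1* stood highest in granulocyte-monocyte-precursor-like cells, at 42.1 ± 20.5 CPM (SD, n = 9), followed by neutrophil-like cells at 23.7 ± 5.4. The log2 difference of these classes was 0.68, in the same direction in 8 of 9 mice, and neutrophil-like cells exceeded classical-monocyte-like cells by 1.78 in 9 of 9 mice (exact sign-flip p = 0.00391, adjusted 0.129). *Timd4* in plasmacytoid-dendritic-like cells, at 4.3 ± 2.7 CPM, exceeded neutrophil-like cells in 8 of 9 mice by a log2 of 0.96 (exact sign-flip p = 0.0469 before adjustment). Below that cell minimum, the 7 stromal-or-endothelial-like cells held 19 *Vcam1* UMIs, a pooled 1135 CPM, in 4 of the 6 mice with such cells. None of the 99 neighbouring pairs below the macrophage-like class, over 12 classes and 9 genes, passed after adjustment, and 9 pairs had an unadjusted p under 0.05.

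**Figure D3:**
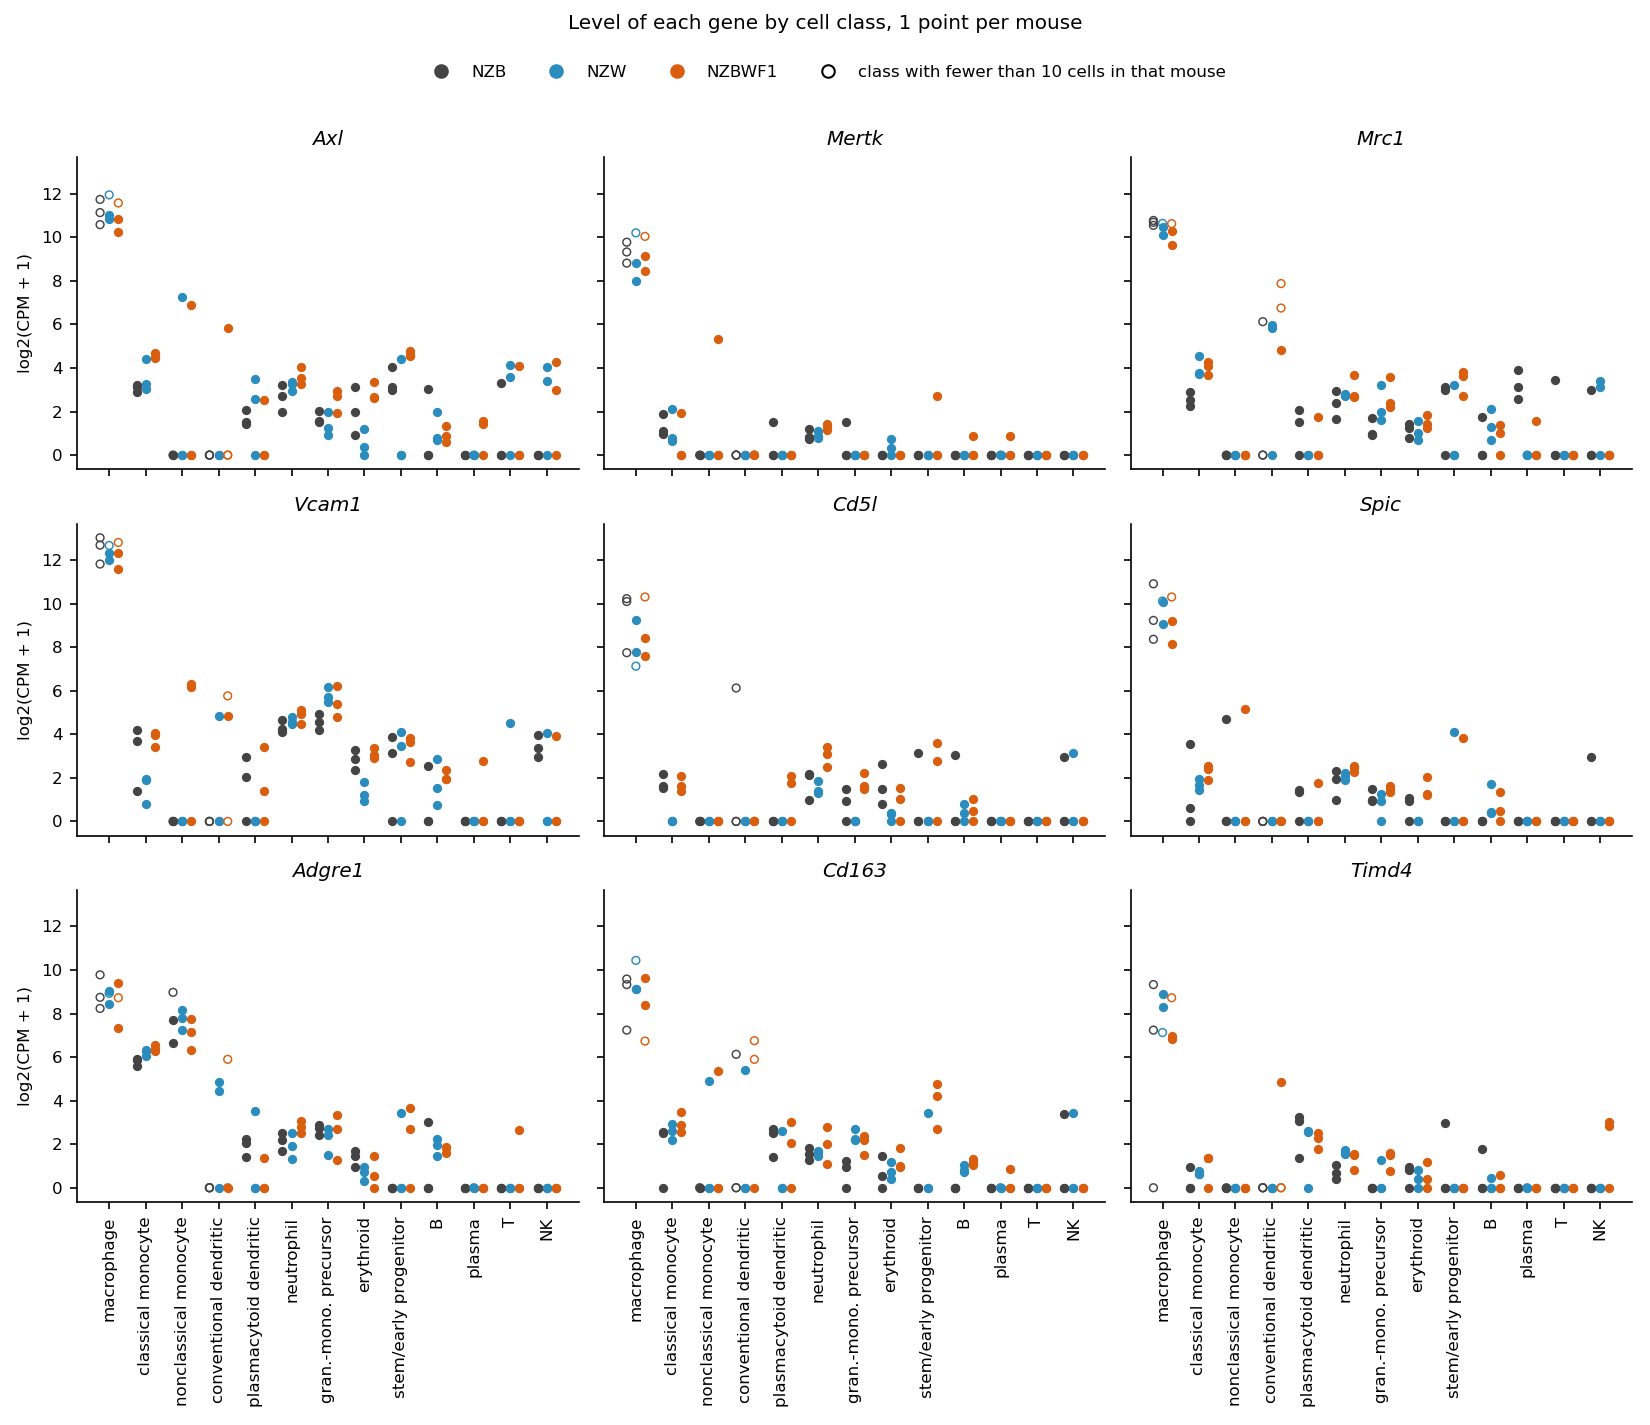
Level of each gene, 1 panel per gene, as log2(CPM + 1) on the y axis in 13 cell classes on the x axis, with 1 point per mouse colored by strain and hollow points for a class with fewer than 10 cells in that mouse. The macrophage-like class has the highest mean in each panel, 1 NZB mouse has no *Timd4* in it, and the monocyte-like classes lie closest to it for *Adgre1*.

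In single cells, detection differed widely between the genes. At least 1 UMI was found in 89 of the 95 macrophage-like cells (93.7%) for *Axl* and for *Vcam1*, in 76 (80.0%) for *Mrc1*, 62 (65.3%) for *Spic*, 50 (52.6%) for *Mertk* and for *Cd163*, 48 (50.5%) for *Adgre1*, 34 (35.8%) for *Cd5l* and 31 (32.6%) for *Timd4*. When each cell was thinned to 1000 UMIs, the shares ran from 16.8% for *Timd4* to 91.6% for *Vcam1*. The share in B-like cells, which should lack these genes, was 0.241% for *Axl*, 0.419% for *Vcam1* and 0.572% for *Adgre1*, at a median of 1703 UMIs per cell against 1852 in macrophage-like cells. For *Adgre1*, thinned shares were 32.6% in macrophage-like, 16.6% in nonclassical-monocyte-like and 8.41% in classical-monocyte-like cells.

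A macrophage-like cell held a median of 6 of the 9 transcripts, 88 of the 95 held at least 3, 3 held all 9, and none lacked all of them. *Axl* and *Vcam1* were found together in 85 cells, *Mertk* and *Axl* in 48, and *Cd5l* and *Timd4* in 16. No *Mrc1*, *Cd5l* or *Timd4* UMI was found in the 169 nonclassical-monocyte-like cells, which allows a share of up to 1.78% of cells with a UMI, counting error only. At least 3 of the 9 genes were also found in 101 neutrophil-like, 72 mixed and 22 classical-monocyte-like cells.

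Most UMIs of these genes nevertheless lay outside the 95 cells. Macrophage-like cells gave 47.6% of all *Mertk* UMIs in kept cells, 32.4% of *Spic*, 30.5% of *Axl*, 29.6% of *Vcam1*, 27.0% of *Timd4*, 26.7% of *Mrc1*, 24.3% of *Cd5l*, 22.8% of *Cd163* and 5.6% of *Adgre1*. Neutrophil-like cells, 33.8% of kept cells, gave 39.7% of *Cd5l* and 27.7% of *Vcam1* UMIs, and classical-monocyte-like cells gave 57.4% of those of *Adgre1*. The 406 cells past the macrophage gate in any class (1.04% of kept cells) held 75.6% of *Mertk*, 54.7% of *Axl* and 40.0% of *Cd163* UMIs, but 12.3% of those of *Adgre1*.

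Within the neutrophil-like class, 148 of 13180 cells (1.12%) passed the macrophage gate as well, with a median of 3594.5 UMIs against 2410 in the others. *Axl* was at 195 CPM in those 148 cells and 5.51 in the rest of the class, and *Vcam1* at 464 and 16.9. In the RNA outside cells *Vcam1* was at 48.7 CPM, *Axl* at 24.1, *Mrc1* at 17.1 and *Adgre1* at 11.9. The part of barcodes with more than 1 cell in these levels was not tested.

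**Figure D4:**
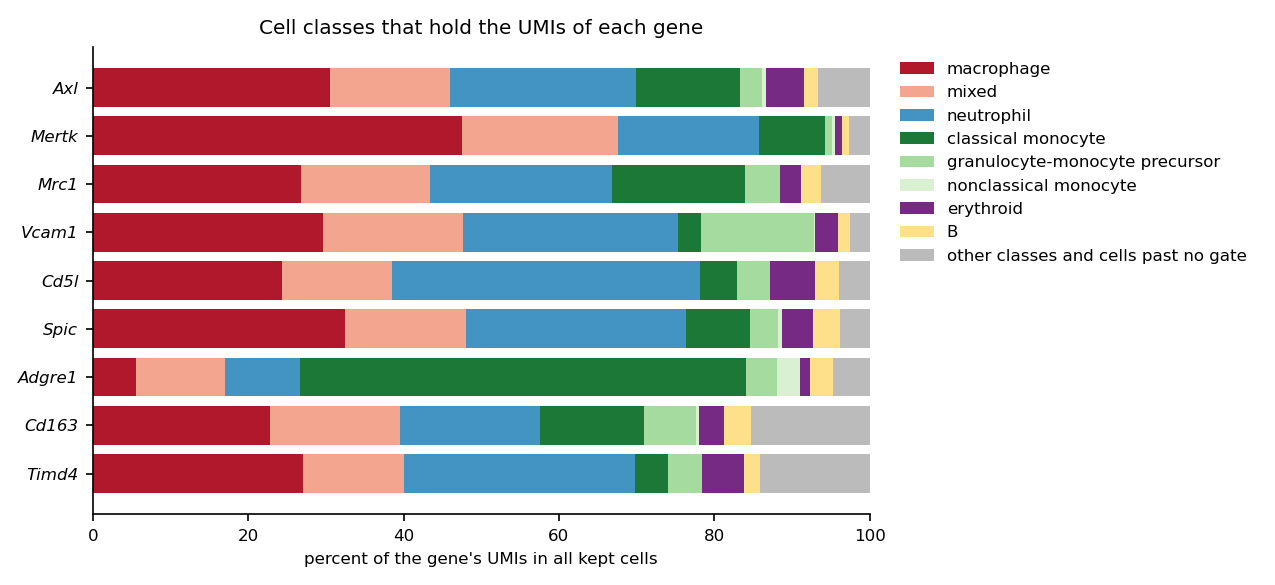
Percent of the UMIs of each gene (x axis, from 0) that came from each cell class (stacked colors, 1 bar per gene), over all kept cells of the 9 mice. Macrophage-like cells give 5.6% for *Adgre1* and 22.8% to 47.6% for the other 8 genes.

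The genes most like each member in pattern were taken from Pearson's r of log2(CPM + 1) over 15 class means, a description whose points share libraries and depth. For a gene low in all other classes, r rests largely on the macrophage-like class. *Timd4*, for example, had a mean of 265 CPM there and at most 4.33 CPM in any other class. *Mertk* was most like *Spic* (0.98), *Col14a1* (0.95) and *Axl* (0.94), and *Spic* was most like *Mertk*, *Igf1* (0.96) and *Abcc3* (0.95). *Axl* was most like *Hmox1* (0.95), *Fcna* (0.95) and *Mertk*, and *Vcam1* like *Fcna* (0.94), *Spic* (0.92) and *Mertk* (0.91). *Cd5l* and *Timd4* were closest to each other (0.93), followed by *Kcnj10* (0.93) and *Fcna* (0.92) for *Cd5l* and by *Kcnj10* (0.91) and *Col14a1* (0.91) for *Timd4*. *Mrc1* was most like *Cxcl9* (0.94), *Ms4a7* (0.92) and *Cd5l* (0.91), and *Cd163* like *Fcna* (0.92), *Fam213b* (0.91) and *Ms4a7* (0.91). *Adgre1* stood apart, with *Cd302* (0.95) and *Ftl1* (0.94) among the closest, and its r with *Mrc1* (0.551) was the lowest of any pair of the 9.

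Other genes of uptake and macrophage identity, 66 in a list set out by role, were set beside the 9. Of 54 tested between macrophage-like and classical-monocyte-like cells, 23 were higher and 7 lower by edgeR's quasi-likelihood test, with a median log2 difference of 0.99 against -0.37 over all genes tested, of which 6.98% were higher and 14.2% lower. The genes of digestion and sterol export had 8 higher and 2 lower of 14, those of identity 10 higher and 3 lower of 15, and the receptors 4 higher and none lower of 11. In these groups fewer were tested within classical-monocyte-like cells alone, namely 11, 14 and 10. Some of those called higher may thus have met the filter on low counts only through the macrophage-like sums, and their passing is no support. Of the 3 bridging ligands tested none was higher and 1 was lower, and of the 6 engulfment genes none was higher and 1 was lower. Of the 5 genes of do-not-eat-me signals 1 was higher. The called genes with the smallest p included *Hmox1* (log2 difference 5.49), the lysosomal protease genes *Ctsd* (3.98) and *Lgmn* (3.70), and the transferrin gene *Trf* (3.15).

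Strain differences within macrophage-like cells could be tested for NZBWF1 against NZW, with 2 mice on each side. None of the 9 genes was called (1 had an unadjusted p under 0.05, and DESeq2 also called none), where 0.919% of the 544 genes tested were called. The share of all genes with such an unadjusted p is not given. The log2 difference was -0.40 for *Axl* (SE 0.340), 0.28 for *Mertk*, -0.34 for *Mrc1*, -0.19 for *Vcam1*, -0.76 for *Cd5l*, -0.80 for *Spic*, -0.23 for *Adgre1* and -0.09 for *Cd163*. For *Timd4* it was -1.75 (SE 0.626, adjusted p = 0.340 by edgeR), with 315 and 477 CPM in the 2 mice of NZW and 113 and 123 CPM in those of NZBWF1. The comparisons with NZB could not be fitted because no NZB mouse had 10 such cells.

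With the quality limits not applied, an alternative chosen after seeing the data, 8 mice could be compared. None of the 9 genes was called by edgeR or had an unadjusted p under 0.05 in any of the 4 strain comparisons, where 0.629% of 636 genes were called against the parental mean, 2.04% for NZB against NZW, 1.57% for NZBWF1 against NZB and 0.157% for NZBWF1 against NZW. *Cd5l* in NZB against NZW came nearest in size, at a log2 difference of 1.04 (SE 0.559), followed by *Timd4* at -0.95 (SE 0.679). The smallest unadjusted p of the 9 genes was 0.0514 by edgeR, for *Timd4* in NZBWF1 against NZW (-0.94, SE 0.469). The other 7 genes lay between -0.76 (*Adgre1*, NZBWF1 against NZB) and 0.33 (*Adgre1*, NZB against NZW) over the 4 comparisons.

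Taking every cell past the macrophage gate, also chosen after seeing the data, brought in all 9 mice and cells that pass other gates as well, and left 8 of the 9 genes past the filter, all but *Timd4*. Of these 406 cells 95 were macrophage-like. These were 6, 4 and 2 of 25, 22 and 27 cells in the NZB mice and 12, 19 and 8 of 43, 51 and 38 in NZW. In NZBWF1 they were 4, 18 and 22 of 25, 75 and 100, and the part of this mix in the differences was not tested. For NZB against NZW 1 of the 8 was called by edgeR, *Axl*, lower in NZB (log2 difference -1.01, SE 0.268, adjusted p = 0.0377), where 3.2% of 2003 genes were called and 1.95% were called lower. In macrophage-like cells that log2 difference of *Axl* was -0.16 with no cell minimum and 0.097 with the quality limits not applied, neither called. With every cell past the gate none of the 8 was called against the parental mean (0.0999% of genes called), between NZBWF1 and NZB (0.0999%) or between NZBWF1 and NZW (0.649%). An unadjusted p under 0.05 was found for 3, 3, 0 and 5 of the 8 genes, for the parental mean, NZB against NZW, NZBWF1 against NZB and NZBWF1 against NZW, in each case with a negative log2 difference. In NZBWF1 against NZW these included *Mrc1* (-1.02, adjusted p = 0.0551), *Axl* (-0.98, adjusted p = 0.0687) and *Spic* (-1.03, adjusted p = 0.0760). The share of all genes with an unadjusted p under 0.05 is not given, so these counts are not read as results about the 8 genes.

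Pooled over the kept macrophage-like cells of a strain (12 in NZB, 39 in NZW and 44 in NZBWF1), levels have exact Poisson intervals that cover counting error and not the spread of mice. *Cd5l* stood at 929 CPM in NZB (559 to 1450), 384 in NZW (264 to 539) and 345 in NZBWF1 (240 to 479), and the NZB value rests on 19 UMIs, with replicate 3 at 214 CPM against 1096 and 1201 in the others. *Axl* stood at 2316 CPM in NZW (2005 to 2661), 1605 in NZBWF1 (1368 to 1871) and 2200 in NZB (1605 to 2944). *Timd4* stood at 361 CPM in NZW (245 to 512), 148 in NZBWF1 (82.6 to 244) and 196 in NZB (53.3 to 501). *Vcam1* stood at 5671 CPM in NZB (4686 to 6801), 4876 in NZW (4420 to 5366) and 4194 in NZBWF1 (3805 to 4611). Intervals did not overlap for *Cd5l* between NZB and NZW or between NZB and NZBWF1. Nor did they for *Axl* and *Timd4* between NZW and NZBWF1, or for *Vcam1* between NZB and NZBWF1. All other pairs overlapped. The share of all genes with such gaps was not computed, so the gaps are not read as strain differences. Between mice, NZBWF1 against NZW was not called for *Axl* (adjusted p = 0.849 by edgeR) or *Timd4* (adjusted p = 0.340 by edgeR), and NZB could not be tested.

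In classical-monocyte-like cells, *Axl*, *Mrc1* and *Adgre1* were lower in NZB than in NZBWF1, with a log2 difference of 1.61, 1.51 and 0.59. These 3 of the 4 members that passed the filter on low counts, with *Vcam1* as the other, were called higher in NZBWF1 than in NZB by edgeR's quasi-likelihood test, where 16.8% of 8741 genes were called and 7.84% were called higher. For NZB against NZW, 2 of the 4 were called, both lower in NZB (24.3% of genes called, 11.5% lower). Against the parental mean 1 of 4 was called in NZBWF1, and it was higher (2.47% called, 1.5% higher). Between NZBWF1 and NZW none was called (1.25% of genes called), 2 of the 4 had an unadjusted p under 0.05, and DESeq2 called 1. For the last 2 counts the share over all genes is not given, so they are not read as results. The comparisons share mice and are not independent of each other.

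*Axl* stood at 8.23, 6.37 and 7.70 CPM in the classical-monocyte-like cells of NZB, at 8.72, 20.3 and 7.27 in NZW and at 20.9, 21.8 and 24.9 in NZBWF1. The 3 NZBWF1 mice were above all 6 parental mice, with NZW replicate 2 just below them. NZBWF1 differed by a log2 of 1.61 (SE 0.343, adjusted p = 0.00105 by edgeR) from NZB, 0.87 (adjusted p = 0.186) from NZW and 1.24 (SE 0.268, adjusted p = 0.00536 by edgeR) from the parental mean. With cells of at least 2000 UMIs and 1000 genes the difference from NZB was 0.79 (adjusted p = 0.268), no longer called. The call against the mean of the parents was lost without NZBWF1 replicate 2 (1.28, adjusted p = 0.0559), without NZBWF1 replicate 3 (1.16, adjusted p = 0.0677) and with the stricter limits (0.99, adjusted p = 0.398). The difference from NZW was called without NZW replicate 2 (1.49, adjusted p = 0.00631), with no 2-fold lead needed between gates (1.009, adjusted p = 0.0395) and with doubled gate minima (1.10, adjusted p = 0.0397). Between NZB and NZW the log2 difference was -0.75 (SE 0.371, adjusted p = 0.144 by edgeR), -1.04 and called without NZW replicate 3 (adjusted p = 0.0439), and -0.12 without NZW replicate 2 (adjusted p = 0.878).

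*Mrc1* was at 4.70, 6.37 and 3.85 CPM in NZB, 12.4, 22.5 and 12.9 in NZW and 16.1, 18.6 and 11.8 in NZBWF1. Every NZB mouse was below every other mouse. In log2 the difference was -1.58 for NZB against NZW (SE 0.360, adjusted p = 0.00118 by edgeR) and 1.51 for NZBWF1 against NZB (SE 0.376, adjusted p = 0.00401), the latter lost without NZBWF1 replicate 2 (1.26, adjusted p = 0.0710). With the stricter limits on UMIs and genes these were -1.06 (adjusted p = 0.0797) and 1.33 (adjusted p = 0.0540), neither called. NZBWF1 and NZW differed by -0.06.

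*Adgre1* was at 58.8, 56.8 and 47.1 CPM in NZB, 77.0, 79.3 and 64.3 in NZW and 75.5, 92.0 and 81.0 in NZBWF1, again with every NZB mouse lowest. The log2 difference was 0.59 for NZBWF1 against NZB (SE 0.148, adjusted p = 0.00414 by edgeR), lost without NZBWF1 replicate 2 (0.49, adjusted p = 0.0710) and with the stricter limits (0.14, adjusted p = 0.775). Between NZB and NZW it was -0.41 (SE 0.146, adjusted p = 0.0361 by edgeR). That call was lost without NZB replicate 2, NZB replicate 3, NZW replicate 1 or NZW replicate 2 (-0.32 to -0.48, adjusted p 0.0647 to 0.172), by DESeq2 (adjusted p = 0.149), and it turned in sign (0.09) with the stricter limits.

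*Vcam1* was at 11.8, 1.59 and 17.3 CPM in NZB, 0.73, 2.81 and 2.80 in NZW and 14.5, 16.0 and 9.69 in NZBWF1. The NZW and NZBWF1 mice did not overlap, and the log2 difference was 2.52 (SE 0.640, adjusted p = 0.0708 by edgeR). It was called without NZB replicate 2 (2.53, adjusted p = 0.000294), without NZB replicate 3 (2.53, adjusted p = 0.00664) and with the stricter limits (3.65, adjusted p = 0.00435). So it was with no lead needed (2.16, adjusted p = 0.00566) and with doubled gate minima (2.57, adjusted p = 0.0178). A macrophage gate with *Hmox1* in place of the C1q genes and with lower minima gave 2.37 (adjusted p = 0.0182), also called. The call was made too with no filter on low counts (2.53, adjusted p = 6.16e-06) and by DESeq2 (adjusted p = 0.0213). For NZB against NZW, *Vcam1* was higher in NZB, opposite in direction to *Mrc1* and *Adgre1*, at a log2 difference of 1.92 (SE 0.716, adjusted p = 0.0621 by edgeR). It was called, higher in NZB, without NZB replicate 2 (2.69, adjusted p = 0.000169), with the stricter limits (3.44, adjusted p = 0.000953) and by DESeq2 (adjusted p = 0.0170). *Cd5l*, below the filter, was at 3.53, 2.12 and 1.92 CPM in NZB and 3.21, 1.59 and 2.08 in NZBWF1, and had no UMI in any of the 3 NZW mice. The other 4 genes were below the filter too, with *Mertk* between 0 and 3.38 CPM over the 9 mice, *Spic* between 0 and 10.6, *Cd163* between 0 and 10.1 and *Timd4* between 0 and 1.61, and none was tested in the fit with the planned limits.

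The macrophage gate genes were also present in these cells. Their summed level was 37.2 to 63.5 CPM in NZB, 59.3 to 85.5 in NZW and 94.1 to 127 in NZBWF1, so the parents overlapped and the NZBWF1 mice were above both, without a test. In every mouse 6 to 7 of the 9 gate genes had a UMI, and *Vsig4* and *Marco* were at 0 in all. *Sdc3* and *Maf* held the most, with 330 and 191 UMIs over all mice. *C1qa* held 128, *Slc40a1* 96, *C1qb* 94, *C1qc* 85 and *Siglec1* 37. Among cells with no UMI of the list, *Axl* was higher in NZBWF1 than in NZB (log2 difference 1.73, SE 0.455, adjusted p = 0.00758 by edgeR), as were *Mrc1* (1.40, adjusted p = 0.0331) and *Adgre1* (0.58, adjusted p = 0.00948), and *Mrc1* was lower in NZB than in NZW (-1.49, adjusted p = 0.0105). In those cells *Axl* was at 2.68, 5.25 and 2.23 CPM in NZB, from only 2, 9 and 2 UMIs. It was at 11.4, 12.7 and 15.01 CPM in NZBWF1. In each mouse of the 3 strains the *Axl* level was below that with every classical-monocyte-like cell, so the cells set aside held more *Axl* per UMI. *Axl* against the mean of the parents (1.22, adjusted p = 0.0576) and *Adgre1* in NZB against NZW (-0.36, adjusted p = 0.0881) did not pass there, and *Vcam1* failed the filter, with 0 to 4 UMIs per mouse. Its level in those cells was 2.68, 1.17 and 3.34 CPM in NZB, 0, 0 and 0.626 in NZW and 1.91, 1.82 and 3.34 in NZBWF1, below the level with every classical-monocyte-like cell in each mouse.

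Of the wider list, 50 genes were tested in classical-monocyte-like cells by edgeR. For NZBWF1 against NZB, 12 were higher and 3 lower, led by *Csf1r* (log2 difference 0.79), the do-not-eat-me receptor gene *Sirpa* (0.71) and the phagosomal pore gene *Mpeg1* (0.52). Over all genes tested in that fit 16.8% were called, 7.84% higher. The same 3 genes were the ones called against the parental mean (0.52, 0.43 and 0.35). Between NZB and NZW, 10 were higher in NZB and 15 lower, with *Ctsd* at 0.69, the engulfment adaptor gene *Elmo2* at -0.87 and the phosphatidylserine receptor gene *Cd300lf* at 1.74, where 24.3% of all genes were called, 11.5% lower. None was called for NZBWF1 against NZW.

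**Figure D5:**
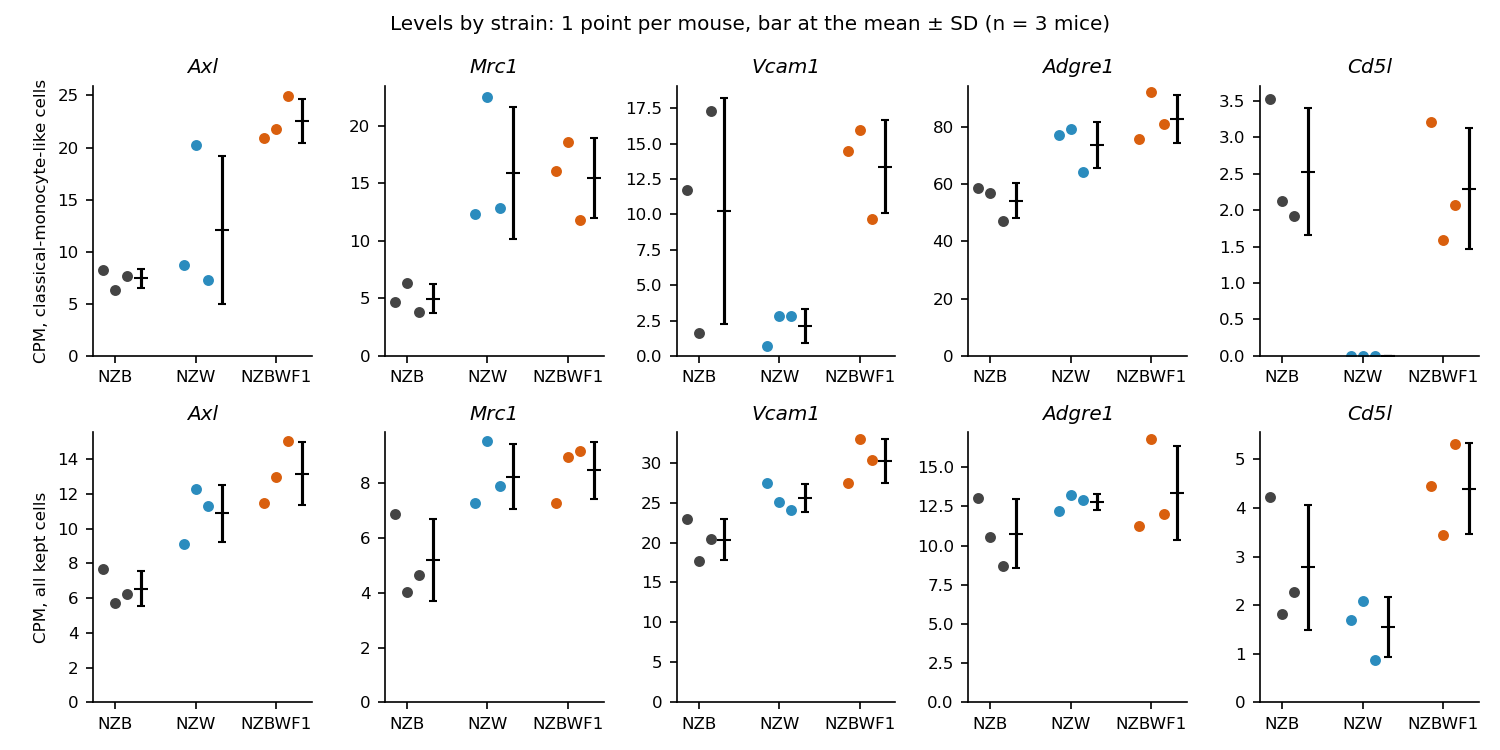
Level in CPM (y axis) of *Axl*, *Mrc1*, *Vcam1*, *Adgre1* and *Cd5l* by strain (x axis) in classical-monocyte-like cells (upper row) and in all kept cells (lower row), with 1 point per mouse and the mean ± SD of 3 mice. In the upper row the NZB mice lie below the NZBWF1 mice for *Axl*, *Mrc1* and *Adgre1*.

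All kept cells of a mouse were then summed. In such sums, fewer cells of a type and less RNA per cell cannot be told apart. Between the parents 2 of the 9 genes were called, both lower in NZB (19.2% of 12613 genes called, 9.81% lower). In NZBWF1, 2 were higher than in NZB (11.1% called, 6.42% higher) and 1 was higher than in NZW (2.28% called, 1.49% higher). Against the parental mean none was called (0.896% of genes called), 4 of the 9 had an unadjusted p under 0.05, and DESeq2 called 1. Without the share over all genes beside them, the last 2 counts are not read as results.

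*Axl* was at 7.67, 5.72 and 6.22 CPM in NZB, 9.10, 12.3 and 11.3 in NZW and 11.5, 12.96 and 15.1 in NZBWF1, with every NZB mouse lowest. The log2 difference was 0.93 for NZBWF1 against NZB (SE 0.165, adjusted p = 0.0037 by edgeR) and -0.66 for NZB against NZW (SE 0.166, adjusted p = 0.0131 by edgeR). The latter was lost without NZB replicate 2, NZB replicate 3, NZW replicate 2 or NZW replicate 3 (adjusted p 0.0501 to 0.0700) with the stricter limits (-0.34, adjusted p = 0.215) and with the quality limits not applied (-0.40, adjusted p = 0.131).

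*Mrc1* was at 6.87, 4.02 and 4.64 CPM in NZB, 7.27, 9.54 and 7.87 in NZW and 7.28, 8.94 and 9.16 in NZBWF1. Its difference for NZB against NZW, -0.61 (SE 0.200, adjusted p = 0.0470 by edgeR), was lost without any 1 of NZB replicates 2 and 3, NZW replicates 1 to 3 and NZBWF1 replicates 2 and 3 (adjusted p 0.0527 to 0.203), with the stricter limits (-0.53, adjusted p = 0.108), by DESeq2 (adjusted p = 0.0590), with RLE size factors (-0.59, adjusted p = 0.0542) and with the quality limits not applied (-0.32, adjusted p = 0.328). For *Vcam1*, the log2 difference of NZB against NZW was 1.92 in classical-monocyte-like cells and -0.24 here (adjusted p = 0.195 by edgeR). It was at 22.9, 17.7 and 20.5 CPM in NZB, 27.5, 25.1 and 24.1 in NZW and 27.4, 33.0 and 30.3 in NZBWF1. Its log2 difference for NZBWF1 against NZB was 0.47 (SE 0.123, adjusted p = 0.0273 by edgeR), lost without NZB replicate 2, NZB replicate 3, NZBWF1 replicate 2 or NZBWF1 replicate 3 (adjusted p 0.0790 to 0.139), with the stricter limits (0.53, adjusted p = 0.0765) and with the quality limits not applied (0.31, adjusted p = 0.154).

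*Cd5l* took another order, with NZW lowest. It was at 4.23, 1.82 and 2.28 CPM in NZB, 1.69, 2.08 and 0.882 in NZW and 4.44, 3.44 and 5.30 in NZBWF1, so that NZW and NZBWF1 did not overlap. The log2 difference was 1.48 for NZBWF1 against NZW (SE 0.347, adjusted p = 0.0466 by edgeR), lost without NZB replicate 3, any NZW mouse, NZBWF1 replicate 1 or NZBWF1 replicate 3 (1.19 to 1.75, adjusted p 0.0702 to 0.205). It was also lost without the top 5% of barcodes by UMIs (1.36, adjusted p = 0.0727), with free RNA subtracted (1.46, adjusted p = 0.0566) and with the quality limits not applied (1.36, adjusted p = 0.0869).

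The remaining 5 genes were not called in any strain comparison of all kept cells. *Mertk* lay between 1.006 and 2.52 CPM over the 9 mice, *Spic* between 1.70 and 5.20, *Adgre1* between 8.67 and 16.8, *Cd163* between 2.52 and 5.96, and *Timd4* between 0.503 and 2.33. The macrophage gate genes summed to 73.8 to 104 CPM in NZB, 113 to 134 in NZW and 127 to 144 in NZBWF1 marrow, and their part in the differences of *Axl*, *Mrc1* and *Vcam1* was not tested. Of the wider list, 60 genes were tested. For NZB against NZW, 13 were higher and 8 lower (*Havcr1*, encoding the phosphatidylserine receptor TIM-1, at 1.46, the lysosomal gene *Cd68* at 0.70 and the scavenger receptor gene *Msr1* at 1.18). For NZBWF1 against NZB, 6 were higher and 5 lower (*Ucp2* at 0.50, the lipopolysaccharide co-receptor gene *Cd14* at -0.82 and *Msr1* at -0.90), and for NZBWF1 against NZW 2 were higher (*Havcr1* at 1.007 and *Cd68* at 0.41). Over all genes tested, 19.2%, 11.1% and 2.28% were called in these 3 comparisons, in that order.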

How the data were processed

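Femur marrow of 3 NZB, 3 NZW and 3 NZBWF1 mice was sequenced as 1 library per mouse, and groups were taken from the labels. The authors made the files with bcl2fastq 2.20 and Cell Ranger 3.1.0 on mm10, and deposited UMI counts, not normalized, in 1 matrix of called cells and 1 of every droplet, for all libraries together. Cells were read from the former. The number at the end of a barcode was read as the line of the library list, and whether the merging of libraries equalized their depth is not given in the sources read. Droplets with 10 to 99 UMIs in the latter gave the level of RNA outside cells. Columns with no mapped mouse numbered 0.

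Barcodes were kept from 1000 UMIs and 500 genes upward, up to 10% mitochondrial UMIs. Each of 17 marker lists had a minimum number of UMIs and of genes, and a cell past several gates was given to the list that led by at least 2-fold relative to that list's 90th percentile. The others were mixed and left out of classes. This was the only treatment of doublets, and no doublet caller was run. Cells are not replicates, so counts were summed per class and mouse where at least 10 cells were found. Sums were tested with edgeR 4.0.16 (quasi-likelihood, TMM, filterByExpr, Benjamini-Hochberg over all genes tested, threshold 0.05) in R 4.3.3, with DESeq2 1.42.0 as an alternative. CPM was computed from the sums. The SE of a log2 difference was computed as its absolute value divided by the square root of the F statistic of edgeR's test. Single values were tested by two-sided exact permutation (scipy 1.17.1), and log2(CPM + 1) was used for the order of classes. NZBWF1 was set against the mean of both parents, as in the study, and the strains were also compared in pairs from the same fit. The fits were tested on simulated data.

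All 9 genes were to be named in every comparison, and those below a filter are given by their levels. From the list of 66 others, the 5 called genes of smallest p between classes and up to 3 per strain comparison were named, and the 3 genes of most similar class pattern per member. A gene that this rule names is not reported here. The 9 genes, the lists and the tests were chosen with earlier results of these data known. Intervals cover counting error only. Alternatives changed the quality limits, gates, cell minimum, filter, scaling and tool, left out each mouse, and used the replicate number as a block. The macrophage gate without C1q genes put *Hmox1* in their place and asked for at least 3 UMIs from at least 2 genes. The settings with no quality limits, no cell minimum, every cell past the macrophage gate, and monocytes without a macrophage-list UMI were chosen after seeing the data.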

Additional observations from a re-analysis of the deposited data

Results flagged for a closer look

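*Axl* had log2 differences of opposite sign between NZBWF1 and NZW in the 2 phagocyte classes, without overlap of the mice tested. In macrophage-like cells both NZBWF1 mice tested were below both NZW mice (log2 difference -0.40, SE 0.340, 1816 and 1231 CPM against 1828 and 2110, a narrow gap). NZBWF1 replicate 1 (3062 CPM) and NZW replicate 3 (3960 CPM), with fewer than 10 such cells, were not in that test, and with them the strains overlap. In classical-monocyte-like cells all 3 NZBWF1 mice were above all 3 NZW mice (log2 difference 0.87). Neither difference passed edgeR's test after adjustment, and the difference between the classes was not tested.

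Barcodes that the quality limits set aside, which no comparison with those limits used, held a macrophage signal. Of them, 160 passed the macrophage gate, against 406 kept cells, and 118 were taken as macrophage-like, against 95 of the kept cells. At least 1 of the 9 transcripts was found in 112 of the 118.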

How the results depend on the processing

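All 9 genes passed between macrophage-like and classical-monocyte-like cells in every alternative that could be fitted (8 of 8 with no cell minimum), which is no support for those that met the filter only through the macrophage-like sums. The macrophage-like class was highest for 9 members, and for 8 with every cell past the macrophage gate and with at least 20 cells per mouse (1 mouse). Limits of 2000 UMIs and 1000 genes, of 5% mitochondrial UMIs and of 20 cells left too few mice for fits within macrophage-like cells. The cause of the changes below was not tested. Numbers of members called in each setting are given without the share of all genes called in that setting, so they are not read as results about the members. In classical-monocyte-like cells the number of members called was 1 against the mean of the parents, 2 for NZB against NZW, 3 for NZBWF1 against NZB and 0 for NZBWF1 against NZW. In that order it was 0, 1, 0 and 1 with at least 2000 UMIs and 1000 genes. Against the mean of the parents it was 2 with no 2-fold lead, with doubled gate minima, with a macrophage gate without C1q genes and with no filter on low counts, and 0 in monocytes without a macrophage-list UMI. For NZBWF1 against NZW it was 2 (*Axl* and *Vcam1*) with no lead and with doubled minima, and 1 (*Vcam1*) without C1q genes, by DESeq2 and with no filter. For NZB against NZW it was 4 with no filter and 1 in monocytes without a macrophage-list UMI. In that comparison *Adgre1* and *Mrc1* were replaced by *Mrc1* and *Vcam1* by DESeq2 and without NZB replicate 2, and by *Vcam1* alone with at least 2000 UMIs and 1000 genes. Without 1 mouse at a time the numbers ran from 0 to 2 (mean of the parents), 1 to 3 (NZB against NZW), 1 to 3 (NZBWF1 against NZB) and 0 to 1 (NZBWF1 against NZW).

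In all kept cells the numbers called were 0, 2, 2 and 1 in the same order. Against the mean of the parents the number was 1 with at least 2000 UMIs and by DESeq2, 2 with no filter and 3 with at most 5% mitochondrial UMIs. For NZB against NZW it was 0 with at least 2000 UMIs and with the quality limits not applied, and 1 with RLE size factors and by DESeq2. For NZBWF1 against NZB it was 1 with the quality limits not applied, and 3 with at most 5% mitochondrial UMIs, with no filter and with the replicate block, where *Mrc1* was added. With at least 2000 UMIs and 1000 genes it was 2 again, but *Axl* and *Mrc1* (0.84, adjusted p = 0.0219 by edgeR) in place of *Axl* and *Vcam1*. With at most 5% mitochondrial UMIs NZB against NZW gave 3, all lower in NZB, with *Timd4* added. For NZBWF1 against NZW it was 0 with those limits not applied, without the top 5% of barcodes and with free RNA subtracted. Without 1 mouse the ranges were 0 to 1, 0 to 2, 1 to 3 and 0 to 1. The share of macrophage-like cells gave p = 0.00714 by exact permutation with at most 5% mitochondrial UMIs. The log2 difference in cell number without 1 mouse ran from -1.89 to -0.90 for NZB against NZW, from 1.07 to 2.06 for NZBWF1 against NZB and from -0.10 to 0.47 for NZBWF1 against NZW.

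The labels do not say that a replicate number marks a shared day or litter. Same-numbered mice had correlations of -0.049 to 0.286 in their deviations, against -0.344 to 0.111 for other numbers. All 6 pairs of replicates 1 and 2 were over 0.1 and none of the 3 pairs of replicate 3 was, and 6 of the 9 mice correlated best with their own number, so the number was not taken as a pairing. With the replicate number as a block, genes called in all kept cells against the mean of the parents went from 111 higher and 2 lower to 388 and 126, 2 members were called against the mean of the parents in all kept cells, and the cell number of NZBWF1 against NZB gave 1.48 (adjusted p = 0.0398 by edgeR).

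Direction turned for some differences that were not called, besides *Adgre1* of NZB against NZW in classical-monocyte-like cells, which was. With at least 2000 UMIs and 1000 genes the log2 differences were 0.39 for *Axl* and 0.087 for *Adgre1* (NZB against NZW) and 0.28 for *Mrc1* (NZBWF1 against NZW) in classical-monocyte-like cells. In all kept cells *Adgre1* was then at -0.018 (mean of the parents), 0.44 (NZB against NZW) and -0.24 (NZBWF1 against NZB), and *Timd4* at 0.0066 (NZBWF1 against NZW). In macrophage-like cells of NZBWF1 against NZW, *Mertk* was at -0.072 with no lead, -0.49 without C1q genes and -0.63 with every cell past the gate. *Cd5l* was at 0.22 with every cell past the gate, 0.47 with the quality limits not applied and 0.37 with no cell minimum. *Vcam1* was at 0.10, *Adgre1* at 0.039 and *Cd163* at 0.21 without the top 5% of barcodes, *Vcam1* at 0.073 with no cell minimum, and *Cd163* at 0.018 by DESeq2 and 0.0029 with no filter. *Mrc1* of NZBWF1 against NZW was at 0.037 in classical-monocyte-like cells with no lead and at -0.043 in all kept cells without the top 5%, where *Adgre1* was at -0.0077. Without 1 mouse, NZBWF1 against NZW in macrophage-like cells ran from -0.55 to 0.15 for *Vcam1*, -0.71 to 0.49 for *Cd163*, -1.17 to 0.15 for *Cd5l*, -1.45 to 0.60 for *Adgre1* and -0.0083 to 0.74 for *Mertk*. In classical-monocyte-like cells *Mrc1* of NZBWF1 against NZW ran from -0.31 to 0.29 and *Vcam1* of NZBWF1 against NZB from -0.16 to 1.37. In all kept cells NZBWF1 against NZW ran from -0.037 to 0.14 for *Mrc1*, -0.33 to 0.082 for *Timd4* and -0.16 to 0.17 for *Adgre1*, and against the mean of the parents from -0.071 to 0.31 for *Timd4* and -0.075 to 0.25 for *Adgre1*. Tests within macrophage-like cells rest on the 4 mice with at least 10 such cells.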
